A study of Mus musculus with 6 samples.

Results

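The teneurins Tenm2, Tenm3 and Tenm4 were 3 of the 11578 genes in the deposited expression table of embryonic mouse kidney, taken by gene symbol. The family was selected on the signal of Tenm2 in these same mutant and wild type libraries, where its rise in mutants was already known, so the differences of the members between genotypes are given here as descriptions, with a standard error and without a test. Another teneurin, Tenm1, was not analysed here. The libraries came from poly(A) RNA of whole kidneys, 3 labelled as SRM deletion mutants (328, 336 and 342) and 3 as Sall1 wild type (330, 331 and 337). Sall1, a zinc finger protein, uses the SRM to recruit NuRD, a complex that remodels chromatin, and the series sets mutant against stage-matched wild type kidney. All kidneys were harvested in utero at embryonic day 17 by the stage label and at E17.5 by the extraction protocol, and no other treatment is named. Strain, sex and whether kidneys of a group shared a litter are not given in the labels.

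Teneurins are large proteins that cross the cell membrane once and reach into the space between cells with a barrel-shaped extracellular part. They bind each other and the latrophilins, adhesion receptors coupled to G proteins, on the facing cell. They are best known from the nervous system, where they guide the choice of synaptic partners, and they are also made in tissues outside it. The kidney at this age holds nephron progenitors, stroma, endothelium and several tubule segments side by side, and a value from whole kidney cannot tell more cells of a type from more RNA per cell.

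The 3 genes lay on different chromosomes of mm10. Tenm2 (ENSMUSG00000049336.16) was annotated on the minus strand of chromosome 11 from 36006656 to 37235964, Tenm3 (ENSMUSG00000031561.16) on the minus strand of chromosome 8 from 48227682 to 48843951, and Tenm4 (ENSMUSG00000048078.16) on the plus strand of chromosome 7 from 96171246 to 96911093. Their longest transcripts in GENCODE M21 measured 9908, 8961 and 13172 bases. A value per gene does not tell the 8 annotated transcripts of Tenm2, the 8 of Tenm3 or the 12 of Tenm4 apart. The annotation also placed 3, 1 and 9 genes on the opposite strand that overlap Tenm2, Tenm3 and Tenm4 in whole or in part, and whether reads were assigned by strand is not given in the sources used here.

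The RefSeq promoter windows of Tenm2 and Tenm3 are shown because these were the members whose mutant and wild type values did not overlap. Each runs from 250 bases before to 50 bases after an annotated start (GRCm38.p6), 5′ to 3′ on the gene's minus strand, at chr11:36944192-36944491 for Tenm2 and chr8:48674641-48674940 for Tenm3. Both windows lie inside the GENCODE spans given above, not at their upper ends, where genes on the minus strand begin. Capitals mark AATAT on either strand, that is AATAT or ATATT as printed, a short AT-rich motif of the kind that the Sall1 paralog Sall4 binds in mouse embryonic stem cells.
Tenm2: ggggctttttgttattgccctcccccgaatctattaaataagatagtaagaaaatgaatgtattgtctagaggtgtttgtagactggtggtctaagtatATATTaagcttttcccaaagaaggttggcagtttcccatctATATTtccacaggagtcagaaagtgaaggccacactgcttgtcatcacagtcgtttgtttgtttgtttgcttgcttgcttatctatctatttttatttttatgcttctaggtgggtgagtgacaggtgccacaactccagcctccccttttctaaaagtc
Tenm3: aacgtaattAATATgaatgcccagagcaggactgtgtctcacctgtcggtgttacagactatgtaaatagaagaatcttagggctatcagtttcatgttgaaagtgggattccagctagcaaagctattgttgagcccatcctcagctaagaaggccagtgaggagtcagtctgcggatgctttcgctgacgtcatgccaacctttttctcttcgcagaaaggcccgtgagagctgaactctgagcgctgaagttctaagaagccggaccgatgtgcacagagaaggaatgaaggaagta
The motif stood 2 times in the Tenm2 window and 1 time in the Tenm3 window, and 25.3% of all 32851 RefSeq windows held it at least once. Tenm4, whose genotypes overlapped, had 2 RefSeq windows. The window at the start of its GENCODE span held the motif 1 time, as in Tenm3, and the other, inside the span, 0 times. The Tenm2 window had 2 CG dinucleotides, against 10 in the Tenm3 window, 6 and 12 in those of Tenm4 and a median of 7 CG dinucleotides over all windows. No measurement in the series located binding or the start in use, so these letters describe the windows only.

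Tenm2, a ligand of latrophilin at synapses, stood near the bottom of the table in wild type kidney and well above it in mutant kidney. Its scaled signal per gene was 3191, 2259 and 4934 in wild types 330, 331 and 337. In mutants 328, 336 and 342 it was 24175, 19631 and 21073. Every mutant library was above every wild type library, the lowest mutant at 3.98 times the highest wild type. Mutants averaged 21626 ± 2322 and wild types 3461 ± 1358 (SD, n = 3 each), a 6.25-fold ratio and a log2 difference of 2.71 (SE 0.31) on the log2(signal + 1) scale. Ordered from the highest log2 difference down, Tenm2 was number 7 of 11578 genes. It was among the 23 genes that limma called higher in mutants at a Benjamini-Hochberg adjusted p under 0.05, 0.199% of the table (0.285% in either direction and 0.0864% lower). This call uses the contrast by which the family was chosen, so nothing further is read from it.

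**Figure D1:**
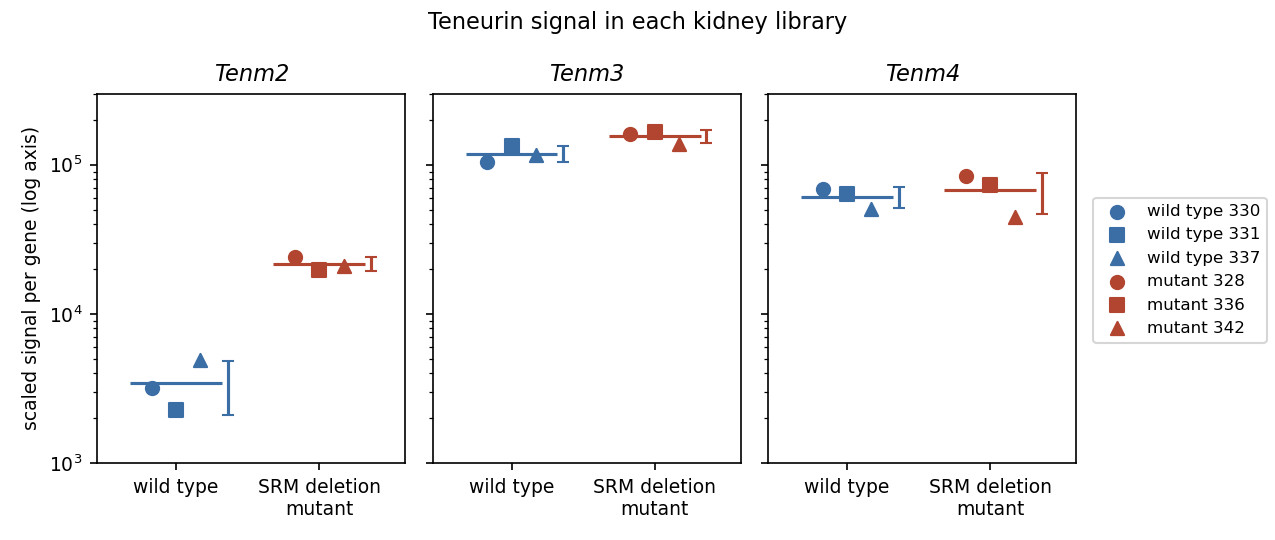
Scaled signal per gene on a log axis for Tenm2, Tenm3 and Tenm4 in the 3 wild type (blue) and 3 mutant (red) kidney libraries; horizontal lines are group means and the bars beside them ± 1 SD. Tenm2 lies between 2259 and 4934 in wild types and between 19631 and 24175 in mutants, whereas the Tenm3 groups almost touch and the Tenm4 groups overlap.

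Tenm3, a teneurin known for matching neurons of the visual pathway and hippocampus to their partners, was abundant in both genotypes and moderately higher in mutants. Its signal was 104566, 133744 and 116680 in wild types 330, 331 and 337, and 160835, 166854 and 136668 in mutants 328, 336 and 342. The groups did not overlap, but only narrowly, since mutant 342 exceeded wild type 331 by 2924, or 1.02-fold. Mutants averaged 154786 ± 15976 and wild types 118330 ± 14659 (SD, n = 3 each), a 1.31-fold ratio and a log2 difference of 0.39 (SE 0.17). Groups that lay apart in this direction were common, at 11.1% of all genes (8.42% in the opposite direction), and Tenm3 was number 2172 from the top by its log2 difference. It was not among the called genes.

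Tenm4, which in mice is needed for early embryonic development and for the myelin-forming cells of the brain, showed no separation of the genotypes. Its signal was 68692, 63935 and 50098 in wild types 330, 331 and 337, and 84516, 73316 and 44531 in mutants 328, 336 and 342. The mutants held both the highest and the lowest value of the 6 libraries. Mutants averaged 67454 ± 20627 and wild types 60908 ± 9659 (SD, n = 3 each), a log2 difference of 0.11 (SE 0.24) that is smaller than its error. The spread among mutants, 30.6% of the mean, was wider than the 10.7% of Tenm2 and 10.3% of Tenm3, whereas among wild types Tenm2 varied most, at 39.2%.

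The differences between paralogs can be read within each library, where any scaling of the whole library cancels. The log2 ratio of Tenm2 to Tenm3 was -5.03, -5.89 and -4.56 in wild types 330, 331 and 337 and -2.73, -3.09 and -2.70 in mutants 328, 336 and 342, so it was higher in mutants by 2.32 (SE 0.41). The log2 ratio of Tenm2 to Tenm4 was -4.43, -4.82 and -3.34 in the wild types and -1.81, -1.90 and -1.08 in the mutants, higher by 2.60 (SE 0.51). In both ratios all mutants lay above all wild types. The log2 ratio of Tenm4 to Tenm3 was -0.61, -1.06 and -1.22 in the wild types and -0.93, -1.19 and -1.62 in the mutants, with a mutant minus wild type difference of -0.28 (SE 0.27) and overlapping groups. Tenm2 therefore shifted against both paralogs by more than the ratios varied between libraries, while a shift between Tenm3 and Tenm4 did not stand out from that variation. These ratios use the same contrast by which the family was chosen and remain a description.

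Divided by the length of the longest transcript, the order of levels was Tenm3, Tenm4 and Tenm2 in all 6 libraries. Signal per kb in wild types was 13205 ± 1636 for Tenm3, 4624 ± 733 for Tenm4 and 349 ± 137 for Tenm2 (SD, n = 3 each). In mutants it was 17273 ± 1783, 5121 ± 1566 and 2183 ± 234 (SD, n = 3 each). Neighbours in this order did not overlap in either genotype. Tenm3 was 37.8 times as high per kb as Tenm2 in wild types and 7.91 times in mutants, and Tenm4 was 13.2 times and 2.35 times as high as Tenm2. Among the 11522 genes with a length, the percentile of Tenm2 by signal per kb was 0.0955 to 0.703 in wild type libraries and 8.57 to 13.0 in mutants. The lowest mean signal of any gene in the table was 3146, so genes low in both genotypes are absent from this ranking. A long gene near that level, as Tenm2 was in wild types, ranks low per kb. Tenm3 stood at percentiles from 64.6 to 79.5 over all libraries and Tenm4 from 21.7 to 42.1. Tenm2 thus remained a low gene in mutants, with the largest relative difference of the 3.

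The sum of the 3 members per kb was 17206, 20007 and 17322 in wild types 330, 331 and 337 and 26805, 26167 and 20759 in mutants 328, 336 and 342. Tenm2 made up 1.96% ± 0.871 (SD, n = 3) of that sum in wild types and 8.97% ± 1.34 (SD, n = 3) in mutants. Tenm3 made up 72.5% ± 4.09 in wild types and 70.5% ± 3.3 in mutants, and Tenm4 25.5% ± 4.31 and 20.5% ± 3.88 (SD, n = 3 each). Of the difference between the mean sums, 63.6% was signal of Tenm3, 28.7% of Tenm2 and 7.77% of Tenm4. In relative terms the difference was concentrated in Tenm2, whereas in signal per kb the larger part lay in Tenm3, whose groups barely separated.

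**Figure D2:**
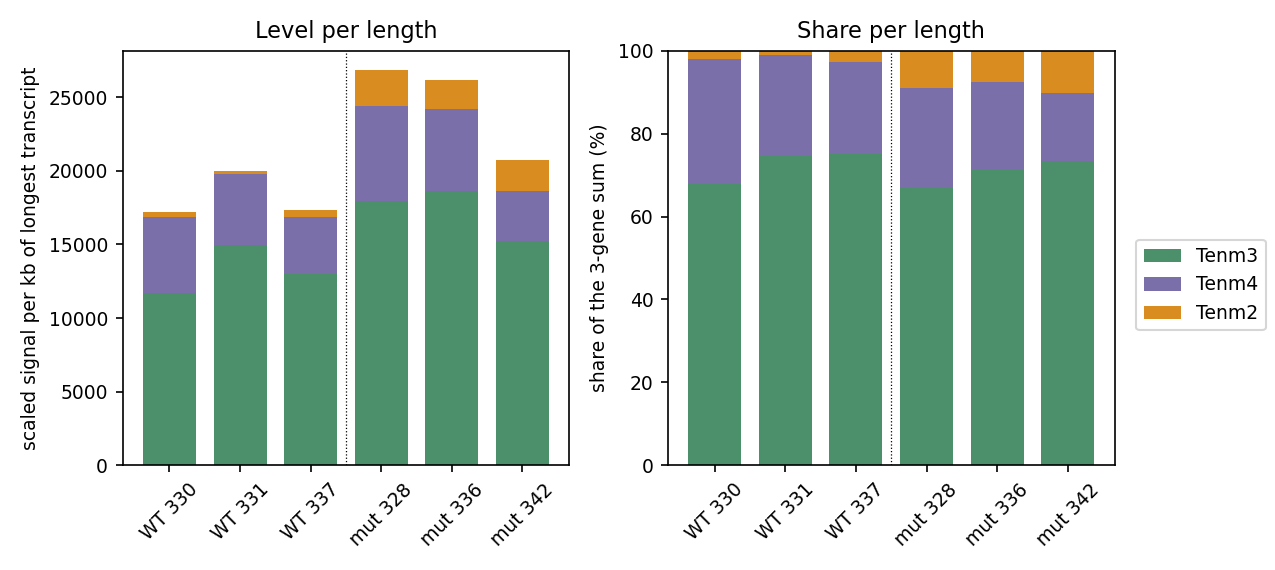
Left, scaled signal per kb of longest transcript stacked for Tenm3, Tenm4 and Tenm2 in each library, wild types (WT) left of the dotted line and mutants (mut) right of it; right, each gene's share of that sum in percent. The Tenm2 segment is 1.14% to 2.87% of the sum in wild types and 7.57% to 10.2% in mutants, and Tenm3 is the largest segment in every library.

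The depth of each library had to be estimated from the spacing of its values, since the authors had scaled totals to between 555147910 and 559251769. That spacing put mutants 328 and 342 and wild type 330 in a class of higher estimated depth and mutant 336 and wild types 331 and 337 in a class of lower depth, on a periodicity of the values that was weak in the first class (0.1 to 0.139) and clearer in the other (0.562 to 0.866). Tenm2 was higher in mutants within both classes, at 24175 and 21073 against 3191 in the deeper one and 19631 against 2259 and 4934 in the shallower one. Tenm3 was also higher in both, at 160835 and 136668 against 104566 and at 166854 against 133744 and 116680. Tenm4 was not, since mutant 342 lay below wild type 330 in the deeper class. For Tenm2 and Tenm3 the direction within any class follows from groups that do not overlap, so it is no check on depth. Each class holds 1 library of one genotype, so these comparisons have no replicate check on that side.

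The Tenm2 log2 difference ranged from 2.38 to 3.0 over 18 other settings, the lowest with a pseudocount of 1000 and the highest without wild type 337. That of Tenm3 ranged from 0.29, after removal of trends with transcript length and GC content, to 0.50 in the deeper libraries alone. The Tenm3 groups stayed apart under quantile normalization and the median ratio rescaling, though with the latter the lowest mutant was 135420 and the highest wild type 135271. The Tenm4 difference turned below 0 in 4 settings, namely without mutant 328, without wild type 337, once length and GC content were regressed out, and in the deeper libraries alone.

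**Figure D3:**
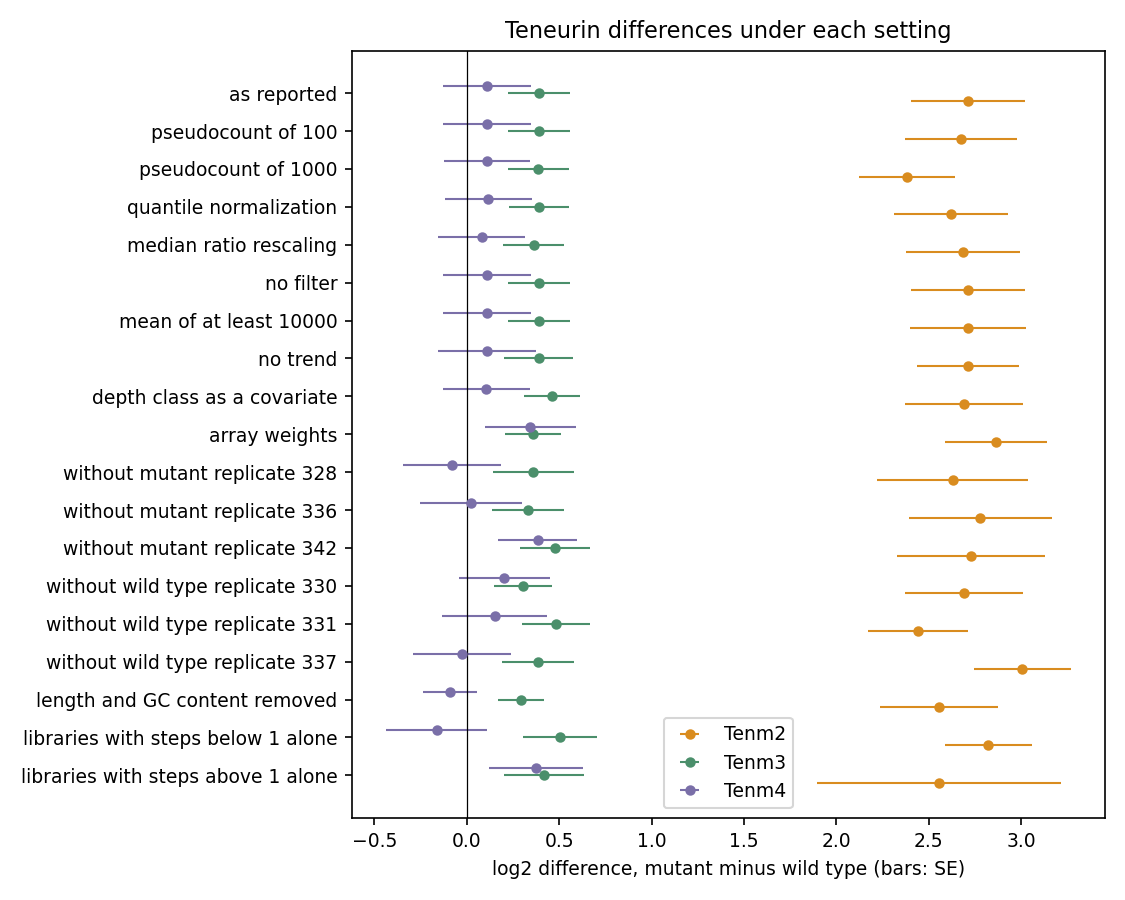
Log2 difference (mutant minus wild type, bars ± 1 SE) of Tenm2 (orange), Tenm3 (green) and Tenm4 (purple) as reported and under each of 18 other settings. Tenm2 stays between 2.38 and 3.0 and Tenm3 between 0.29 and 0.50, while Tenm4 lies on both sides of 0, from -0.16 to 0.38.

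Genes that encode known teneurin partners or receptors of those partners, together called partner genes here, did not pass the test. Of 14 listed genes 12 were in the table, and limma called 0 of them higher and 0 lower at an adjusted p under 0.05. At an unadjusted p under 0.05 there were 2, Adgrl1 and Flrt1, both higher, where 19.0% of all genes had such a p in limma. The median log2 difference of the 12 was 0.06, against 0.02 over all genes, and 7 of the 12 were above 0, against 52.4% of all genes.

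The latrophilins, the receptors that teneurins bind across the cell contact, are listed under their older symbols Lphn1, Lphn2 and Lphn3. Adgrl1 (Lphn1) had a signal of 113440, 75155 and 79138 in wild types 330, 331 and 337 and 128263, 129157 and 100789 in mutants 328, 336 and 342, which gave mutants minus wild types as 0.44 on the log2 scale (SE 0.20, limma adjusted p = 0.262), and wild type 330 lay within the mutant range. Adgrl2 (Lphn2) was at 118044 ± 5100 in mutants and 116332 ± 5948 in wild types (SD, n = 3 each), a difference smaller than either spread. Adgrl3 (Lphn3) was at 12199, 11680 and 12450 in the wild types and 16708, 18100 and 13175 in the mutants, with a difference of 0.39 on the log2 scale (SE 0.21, limma adjusted p = 0.316). Its groups did not overlap, as in 11.1% of all genes in this direction.

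The FLRT proteins are leucine-rich adhesion proteins that bind latrophilins together with teneurins. Flrt1 was at 7691, 11858 and 6281 in wild types 330, 331 and 337 and at 18107, 19400 and 8592 in mutants 328, 336 and 342, which gave mutants minus wild types as 0.80 on the log2 scale (SE 0.35, limma adjusted p = 0.256), and mutant 342 lay among the wild types. Flrt2 and Flrt3 had log2 differences of -0.19 (SE 0.27) and -0.36 (SE 0.28). The netrin receptors Unc5b and Unc5c, which FLRTs also bind, differed by 0.27 (SE 0.24) and -0.26 (SE 0.21). Wild type 330 lay nearer to the mutants than wild types 331 and 337 did for Adgrl1 and Flrt3. Without wild type 330 limma called both, 2 of 12, where it called 3095 genes over the table of 11578.

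Other partners act at the membrane or inside the cell. Dag1, dystroglycan, a laminin receptor reported to bind the end of the teneurin chain, had a log2 difference of 0.21 (SE 0.17). Mbd1, a reader of methylated DNA that binds the intracellular part of teneurin-1, differed by 0.11 (SE 0.19). Ptk2, the focal adhesion kinase that acts with Tenm4 in mouse oligodendrocytes, differed by -0.08 (SE 0.18). Adjusted p of these 3 in limma ran from 0.479 to 0.823.

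**Figure D4:**
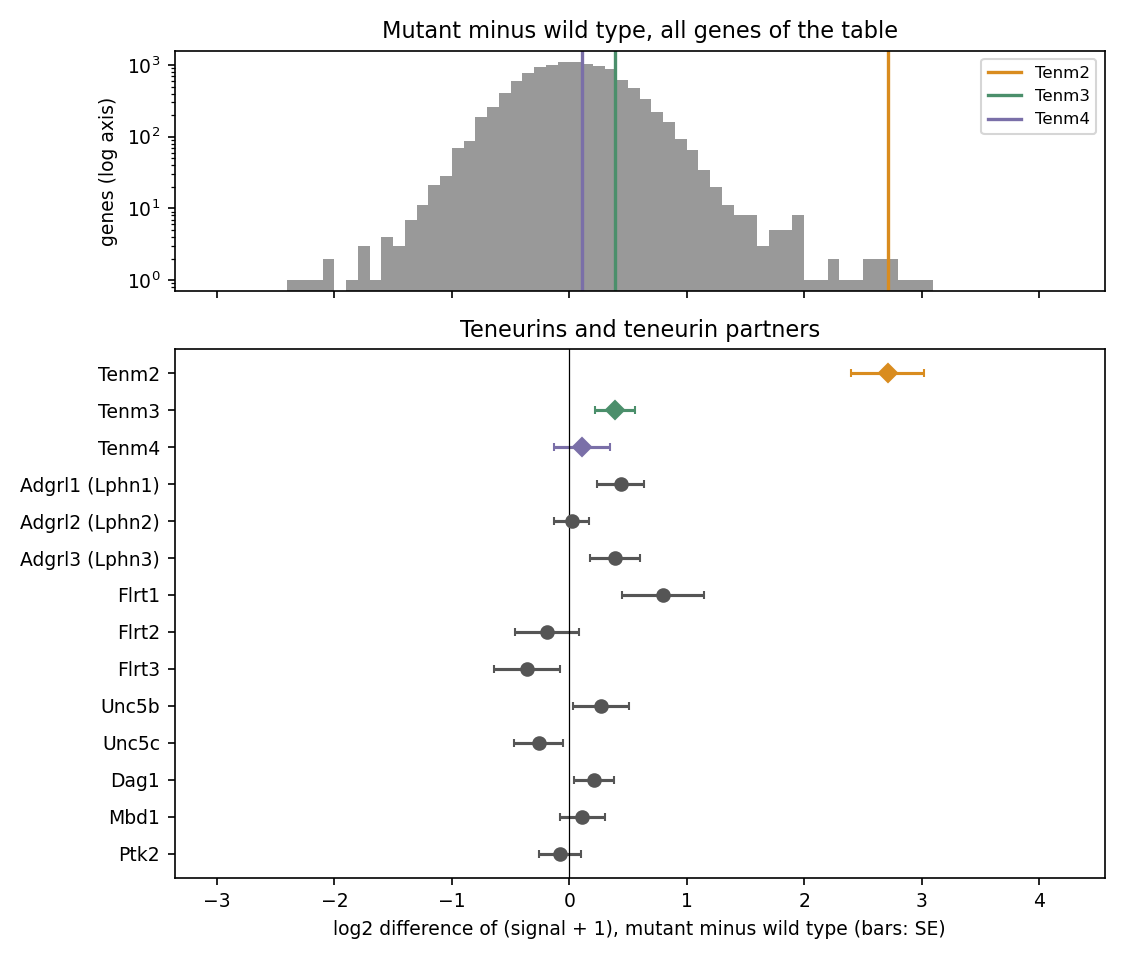
Top, histogram of the log2 difference (mutant minus wild type) of all 11578 genes with the 3 teneurins as vertical lines, gene number on a log axis; bottom, the same difference with its SE for the teneurins and 11 of the 12 partner genes. Tenm2 at 2.71 lies in the sparse upper tail, whereas Tenm3 at 0.39, Tenm4 at 0.11 and these partners other than Flrt1, from -0.36 to 0.44, lie in the bulk of the genes. Flrt1, at 0.80, lies above the bulk and well below Tenm2.

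Other adhesion families known from synapses had 17 of 30 listed genes in the table, and limma called 0 higher and 0 lower, with 5 higher and 2 lower at an unadjusted p under 0.05, where 19.0% of all genes had such a p. Their median log2 difference was 0.36, against 0.02 over all genes, and -0.04 once length and GC content were regressed out, so its direction depended on that setting. The 4 with the lowest p were Lrrtm1, Cadm1, Nectin2 and Nectin1. Lrrtm1, a leucine-rich protein of the receiving side of synapses, was at 2555, 1154 and 1286 in wild types 330, 331 and 337 and at 5446, 5255 and 4943 in mutants 328, 336 and 342, which gave mutants minus wild types as 1.74 on the log2 scale (SE 0.45, limma adjusted p = 0.215). Its groups did not overlap, as in 11.1% of all genes in this direction, and it did not pass the test. Cadm1, an immunoglobulin adhesion protein, differed by -0.62 (SE 0.18, limma adjusted p = 0.231), and the nectins, which join neighbouring epithelial cells, by 0.48 (SE 0.18) for Nectin2 and 0.66 (SE 0.25) for Nectin1, with limma adjusted p = 0.240 and 0.242. Without wild type 330 limma called 8 of the 17, these 4 among them, and 3095 genes over the table of 11578. With array weights it called 9 of the 17, again with these 4, and 3493 genes over the table. The nectins are listed under their older symbols Pvrl2 and Pvrl1.

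The genes nearest to each teneurin on the chromosome, among those in the table, did not pass the test. Wwc1, 26.1 kb from Tenm2, was at 80707, 82281 and 55394 in wild types 330, 331 and 337 and 79245, 76392 and 65729 in mutants 328, 336 and 342, which gave mutants minus wild types as 0.04 on the log2 scale (SE 0.19, limma adjusted p = 0.922). Mat2b, the nearest gene of the table on the other side of Tenm2 but 3440 kb away, differed by -0.03 (SE 0.17). Beside Tenm3 these genes were Dctd at 74.4 kb and Aga at 4670 kb, and beside Tenm4 Nars2 at 40.4 kb and Prcp at 3240 kb, with log2 differences of the 4 from -0.26 to 0.04.

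The genes whose log2 values followed Tenm2 most closely over the 6 libraries were Hsd11b1, Nr2f1, Acmsd, Frat2 and Rassf1, with Pearson correlations between 0.980 and 0.991. Hsd11b1, the enzyme that regenerates active glucocorticoid, was at 2292, 2388 and 3363 in wild types 330, 331 and 337 and at 9948, 9480 and 9367 in mutants 328, 336 and 342. Acmsd, an enzyme of tryptophan breakdown made in kidney and liver, was at 10002, 9952 and 12016 in the wild types and at 35757, 27154 and 29208 in the mutants. In all 5 genes wild type 337 was the highest wild type library, as for Tenm2, and the mutants lay above the wild types. Of the 5, limma called Hsd11b1 and Acmsd higher, where it called 0.199% of all genes higher. Nr2f1, a nuclear receptor of the COUP-TF kind, had a difference of 0.93 on the log2 scale (SE 0.18, limma adjusted p = 0.0764). These correlations rank genes by likeness over libraries that share a group contrast and are given without a test. Genes picked for likeness to Tenm2 tend by that choice to be higher in mutants. Nothing further is therefore read from their separation, calls or adjusted p.

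For Tenm3 the closest genes were Frmpd4, C1qtnf1, Adam19, Nrp2 and Dpp10, at 0.951 to 0.974. Nrp2, a coreceptor for semaphorins and vascular growth factors, was at 40677, 50387 and 37668 in wild types 330, 331 and 337 and at 62951, 71782 and 53597 in mutants 328, 336 and 342. Mutant 336 was the highest and mutant 342 the lowest mutant for all 5, as for Tenm3. For Tenm4 the closest were Celsr1, Brap, Herc1, Dido1 and Hdac4, at 0.969 to 0.989. Celsr1, a cadherin of planar cell polarity, was at 98430, 95324 and 82474 in the wild types and at 114439, 99015 and 73257 in the mutants, which repeats the order of the Tenm4 values within each genotype.

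With the group means removed, the closest genes were Poc5, Cyp27b1, Timm10b, Irgm1 and Ppp1r15a for Tenm2, Nckap1, Slco4c1, Pcdh7, Ep300 and Macf1 for Tenm3, and Dido1, Snx29, Celsr1, Lrp4 and Ppp1r9b for Tenm4, all at 0.990 to 0.998. Tenm2 varied by 39.2% of its mean in wild types, where it was low, and by 10.7% in mutants. Wild type 337, the library of lowest estimated depth, was the highest wild type for Tenm2 and for each of its closest genes here. The part of depth in this likeness was not tested. Celsr1 and Dido1 followed Tenm4 by both measures. For these genes the measures are nearly the same, since their log2 differences between genotypes were small (0.03, 0.12 and 0.11 for Tenm4). These correlations too were the highest of the whole table over 6 libraries and are given without a test. Cyp27b1, which makes active vitamin D in the kidney, was at 1540, 542 and 5036 in wild types 330, 331 and 337 and at 15364, 6684 and 9233 in mutants 328, 336 and 342, which gave mutants minus wild types as 2.60 on the log2 scale (SE 0.67, limma adjusted p = 0.215). The closest genes of Tenm2, Tenm3 and Tenm4 had no gene in common by either measure. The members themselves correlated at 0.11 to 0.75 in log2 values and at -0.36 to 0.49 with group means removed. At such values a gene this close to one member cannot be as close to another, so the lack of a shared gene is no separate result.

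Marker lists place these values in the tissue. Of 13 kidney markers 13 were in the table, and limma called 0, against 0.285% of all genes. At an unadjusted p under 0.05 in limma, 2 were higher and 3 lower, where 19.0% of all genes had such a p. Of 13 neuron and Schwann cell markers 0 were in the table, of 10 adrenal markers 0 and of 8 muscle markers 1. The lowest mean signal of any gene in the table was 3146, so markers below about that level would not be seen. The muscle marker, Actn3, had a log2 difference of -0.49 (SE 0.34).

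Summed levels of cell type lists are given beside the Tenm2 difference. As background for the counts of every list here, limma called 0.199% of all genes higher and 0.0864% lower. An unadjusted p under 0.05 in either direction was found for 19.0% of all genes. Of 9 macrophage markers 6 were in the table, all 6 higher in every mutant than in every wild type, as were 11.1% of all genes, with summed signals of 91008 to 92107 in mutants and 50216 to 58271 in wild types, 0 called by limma and 5 higher at an unadjusted p under 0.05, against 19.0% of all genes with such a p in either direction. The summed signal of 12 nephron progenitor markers was 428606 to 480484 in mutants and 541947 to 601060 in wild types, with Cited1 and Tmem100 called lower by limma and, at an unadjusted p under 0.05, 4 lower and 1 higher, the latter Uncx at 0.84 (SE 0.28) on the log2 scale. Sall1, the gene altered in the mutants, is on this list and made the largest contribution to its sum, at 146014 ± 15649 in mutants and 166799 ± 12472 in wild types (SD, n = 3 each). The 11 stromal markers in the table had 1 called higher, Smoc2, and overlapping sums of 2815304 to 3083644 in mutants and 2550254 to 2972950 in wild types. At an unadjusted p under 0.05 there were 3 higher stromal markers and 1 lower, Rarb, at -0.69 (SE 0.22) on the log2 scale. The 10 proximal tubule markers had a median log2 difference of 0.53, 0 called and 6 higher at an unadjusted p under 0.05, with overlapping sums of 1565782 to 2529266 in mutants and 1398639 to 1749190 in wild types. The 8 podocyte and 7 endothelium markers had medians of 0.08 and 0.01 with 0 called in limma, and at an unadjusted p under 0.05 there were 1 higher podocyte marker and 1 higher and 1 lower endothelium marker. The part of these lists in the Tenm2 difference was not tested.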

How the data were processed

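Polyadenylated RNA from 3 mutant and 3 wild type kidneys was made into Ion Torrent libraries, per the labels' protocols. Each gene has 1 whole number per library, a signal that the authors deposited after scaling the libraries to nearly the same total. The authors' deposited ratio, p-value and log2 columns served only for an alternative count. The submitters' processing notes name mm10 and bedtools. How reads were aligned, assigned, filtered and scaled, and the unit of the signal, is not given in the sources used here, so true depth and counting error are unknown.

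The test was limma 3.58.1 (R 4.3.3, with a trend) on log2(signal + 1). The added 1 is small beside most values, but where a library is at 0 the log2 difference can exceed the log2 ratio of the means. Benjamini-Hochberg adjusted p-values cover all 11578 genes, with 0.05 as the threshold. A filter, at least 1 in at least 3 libraries, removed 0 genes. The design foresaw counts or normalized values, and its branch for scaled values was used. Paralog ratios were fitted by least squares. The fit was tested on simulated data. Libraries count as replicates by their labels alone, so p-values may measure technical spread.

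The members and lists were chosen with earlier results of these data known. Named genes are the members, the listed partners (1 of those in the table is not reported here by name), the other adhesion genes past the threshold or else the 4 with the lowest p, the 5 genes closest to each member by each of 2 correlations (predicted models left out), and the nearest gene in the table on each side. Markers are named within the count of their list. Depth classes rest on the step between values, estimated at 0.793 to 0.863 in the deeper class, on a weak periodicity, and at 1.79 to 3.42 in the other. Lengths and positions come from GENCODE M21 on GRCm38, which is mm10, for 11522 of 11578 genes, 10951 by symbol and 571 by synonym. Promoter sequences come from RefSeq (GRCm38.p6).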

Additional observations from a re-analysis of the deposited data

How the results depend on the processing

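The differences of the 3 teneurins and of their ratios moved by less than 1 SD between libraries in every setting tried, except the Tenm4 to Tenm3 ratio, which was at -0.67 in libraries with steps below 1 alone. Some settings could not move them. The filters and the trend leave the log2 difference of a gene as it is, and median ratio rescaling leaves the ratios as they are. Leaving out 1 library gave 2.44 to 3.0 for Tenm2, 0.30 to 0.48 for Tenm3 and -0.08 to 0.38 for Tenm4, and 1.96 to 2.62, 2.29 to 3.03 and -0.44 to -0.09 for the ratios of Tenm2 to Tenm3, Tenm2 to Tenm4 and Tenm4 to Tenm3. For Tenm2 and Tenm3 the direction could not turn by leaving out libraries, since their groups do not overlap. Counts of calls over the whole table were far less steady. The 33 changed genes became 2 without mutant 328 and 3095 without wild type 330, the extremes of leaving out 1 library, 3493 with array weights, 70 and 699 in libraries with steps below and above 1 alone, and 0 with the authors' p-values after adjustment. Partner genes called were 0 to 2 and other adhesion genes 0 to 8 when 1 library was left out, the highest in both without wild type 330, 2 and 9 with array weights, and 1 and 1 in libraries with steps above 1 alone. The cause was not tested. The settings by depth class alone and by length and GC content were chosen after seeing the data. The filters at the minimum used removed no gene. No paired analysis was possible because the groups share no library number.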
